A study of Mus musculus with 9 samples.

Results

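The 40 genes described here are a panel of cell cycle and DNA replication genes, chosen by symbol from the 55487 genes of the deposited gene table, and all 40 were found there. By phase, 9 act in G1 and at entry into S phase, 10 act in S phase and 21 act in G2 and mitosis. They were compared between 5 control libraries and 4 libraries of retinal explants treated with 2-deoxy-D-glucose (2-DG), a glucose analog that blocks glycolysis, to ask whether lower mRNA of replication-dependent histones went together with lower mRNA of S-phase genes. In the stated protocol, sclera and retinal pigment epithelium were removed from the retina at dissection. Both groups were neural retinas from mice of strain C57BL/6J, wild-type and at P28 (28 days after birth). They were kept for 48 h in Neurobasal-A medium with 5 mM glucose, with 20 mM 2-DG added in the treated group only, followed by a rinse and 1 h in Krebs' Ringer solution. The same 48 h of culture applied to the controls, so no group here is uncultured retina. The samples are labelled as biological replicates, all of batch 1, and nothing says which came from the same animal, so p-values measure the spread between these samples.

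Cells enter the cycle when D-type cyclins with Cdk4 or Cdk6 phosphorylate the retinoblastoma protein and release E2F factors, which turn on genes for cyclin E, the MCM helicase, nucleotide supply and the replication machinery. Genes of G2 and mitosis peak later and are held down in resting cells by the DREAM complex, which binds a promoter element called CHR, often beside CCAAT boxes. Replication-dependent histone mRNA is made in S phase, ends in a stem-loop in place of a poly(A) tail, and is seen by total RNA libraries such as these. Nearly all neurons of the mature mouse retina have left the cell cycle, and Müller glia, its main glia, normally rest without dividing.

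These elements can be read in the promoters of 3 members that the results return to: Rrm1 of the S list, whose 2 groups did not overlap, Mki67, whose fold change was the lowest of all members, and Cdk1, the mitotic kinase. Each is the window from 250 bases before to 50 bases after a gene start in RefSeq, on GRCm38.p6 and written 5′ to 3′ on the strand of the gene. Rrm1 spans chr7:102441445-102441744 (+), Mki67 spans chr7:135716330-135716629 (-) and Cdk1 spans chr10:69352863-69353162 (-). Capitals mark matches, on either strand, to 3 elements. CHR was searched as TTTGAA and in its other form as TTCGAA. The CCAAT box was searched as CCAAT, which on the other strand of the gene reads ATTGG. For E2F the first word was TTGGCGC, the second word was TTCCCGC, the third word was TTGCCGC and the last word was TTCGCGC.
Rrm1: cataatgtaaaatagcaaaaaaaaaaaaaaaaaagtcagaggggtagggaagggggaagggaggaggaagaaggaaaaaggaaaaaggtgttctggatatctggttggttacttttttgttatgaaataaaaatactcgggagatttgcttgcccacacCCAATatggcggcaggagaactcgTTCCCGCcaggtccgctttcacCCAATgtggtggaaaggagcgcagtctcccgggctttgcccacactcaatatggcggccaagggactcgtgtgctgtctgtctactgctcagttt
Mki67: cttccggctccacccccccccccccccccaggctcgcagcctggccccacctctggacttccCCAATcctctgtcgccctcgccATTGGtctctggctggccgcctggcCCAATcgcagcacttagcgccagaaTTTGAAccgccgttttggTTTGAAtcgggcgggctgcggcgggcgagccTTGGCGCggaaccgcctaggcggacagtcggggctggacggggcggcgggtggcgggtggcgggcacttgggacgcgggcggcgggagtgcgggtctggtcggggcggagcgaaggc
Cdk1: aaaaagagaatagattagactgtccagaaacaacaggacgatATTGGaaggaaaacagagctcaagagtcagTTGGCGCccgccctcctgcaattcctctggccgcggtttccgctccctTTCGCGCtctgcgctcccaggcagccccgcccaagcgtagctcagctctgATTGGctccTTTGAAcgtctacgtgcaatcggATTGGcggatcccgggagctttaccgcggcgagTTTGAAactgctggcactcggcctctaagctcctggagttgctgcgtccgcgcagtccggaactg

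A promoter of this kind was found for 30 of the 40 members, and Ccnd1, Ccnd2, Ccne2, Mcm4, Ccna2, Cdc25c, Aurkb, Kif20a, Tpx2 and Foxm1 had none. CHR was present in 12 of 15 G2/M genes, in 2 of 9 S genes (Mcm2 and Mcm7) and in 0 of 6 G1 genes, against 21.66% of 27025 genes with a promoter. The CCAAT box was present in 14 of 15 G2/M genes, 8 of 9 S genes and 2 of 6 G1 genes, against 41.06%. E2F words were present in 6 of 9 S genes, 3 of 15 G2/M genes and 1 of 6 G1 genes, against 10.86%. Rrm1 held 1 E2F word, starting 67 bases before the gene start, and no CHR. Mki67 held 2 CHR words, at 116 and 98 bases before the start, and 1 E2F word at 67, while Cdk1 held 2 CHR words, at 71 and 15, and 2 E2F words, at 178 and 130. A match is a description of letters and not a shown binding site, and members with each element had log2 fold changes on both sides of 0. The 14 tested members with CHR ran from −2.17 (Mki67) to 1.29 (Bub1), 8 of them above 0, as were 17 of 24 with a CCAAT box and 7 of 10 with an E2F word, beside 49.2% of all genes tested. Among tested members with a promoter lacking the element, 12 of 16 (CHR), 3 of 6 (CCAAT box) and 13 of 20 (E2F) were above 0.

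**Figure D1:**
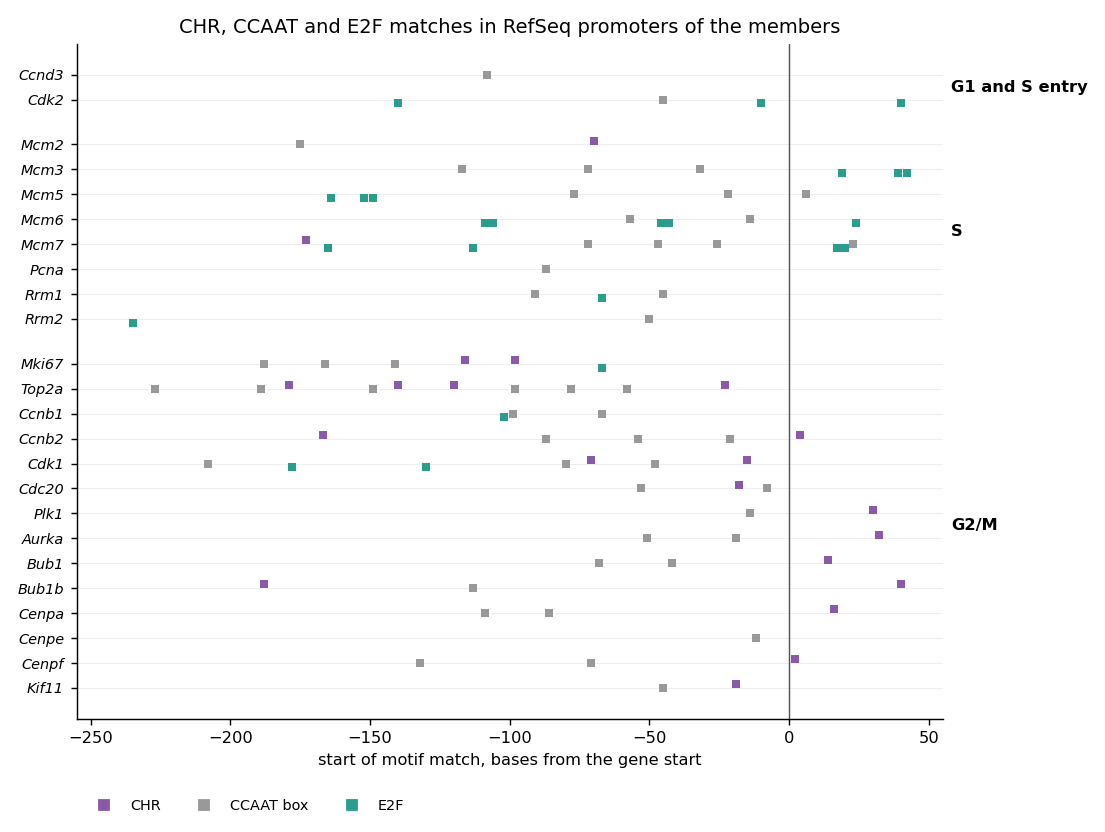
Start of each motif match, in bases from the RefSeq gene start, in members with at least 1 match, grouped by phase; purple marks CHR, grey the CCAAT box and green E2F words, and 2 promoters of Mcm7 and of Ccnd3 share a row each. CHR appears in 12 of 15 G2/M genes with a promoter and 2 of 9 S genes, and E2F words in 6 of 9 S genes, 3 of 15 G2/M genes and 1 of 6 G1 genes.

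Totals ranged from 11318087 to 51802230 estimated counts per library, so that 3 counts were worth 0.0556 to 0.255 CPM. Rod photoreceptor markers were abundant in every library, as the labelled tissue has it, with a summed level of 5642 to 18189 CPM in 8 libraries and 45929 CPM in control replicate 2. All 10 had a log2 fold change below 0 in 2-DG (median −0.57), with 0 at an unadjusted p under 0.05 (edgeR), and without control replicate 2 all 10 had one above 0 (median 0.18). On the first principal component (41.7% of the variance) control replicate 5 (123.6) and 2-DG replicate 4 (101.3) were highest, with the others from −80 to 51. Control replicate 2 stood apart on the second principal component (143.3, against −45.5 to 18.9). Retinal pigment epithelium markers summed to 165 CPM in 2-DG replicate 3 and to 1.78 to 25.1 CPM in the others. Of 4 tested, 3 had a log2 fold change above 0 and 1 below, and 2 were higher at an unadjusted p under 0.05 (edgeR, background 2.42%). Endothelium and pericyte markers summed to 491, 651, 798, 1518 and 2748 CPM in control replicates 1 to 5 and to 855, 708, 1510 and 3623 CPM in 2-DG replicates 1 to 4. Their part in the results below was not tested.

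Many members, most of them G2/M genes, were expressed at a low level. Per kb of exon, the mean over libraries was highest for Pcna (47.2 CPM per kb), the sliding clamp of the replication fork, followed by Cdk4 (23) and Ccnd1 (11.4). It was lowest for Cenpf (0.0533), a kinetochore protein. The median of the S list on this scale was 5.71 CPM per kb, that of the G1 list 2.46 and that of the G2/M list 0.568. A mean under 5 CPM in both groups was seen in 18 members, 16 of them G2/M genes. Over 90% of transcript counts lay on protein-coding transcripts in 30 members, but under 50% in 5, namely Cenpa (17.2%), Cdc25c (31.2%), Cdk4 (36.6%), Tyms (36.7%) and Aurkb (44.9%). For these 5, a gene level is thus largely made of transcripts annotated as a type other than protein-coding.

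**Figure D2:**
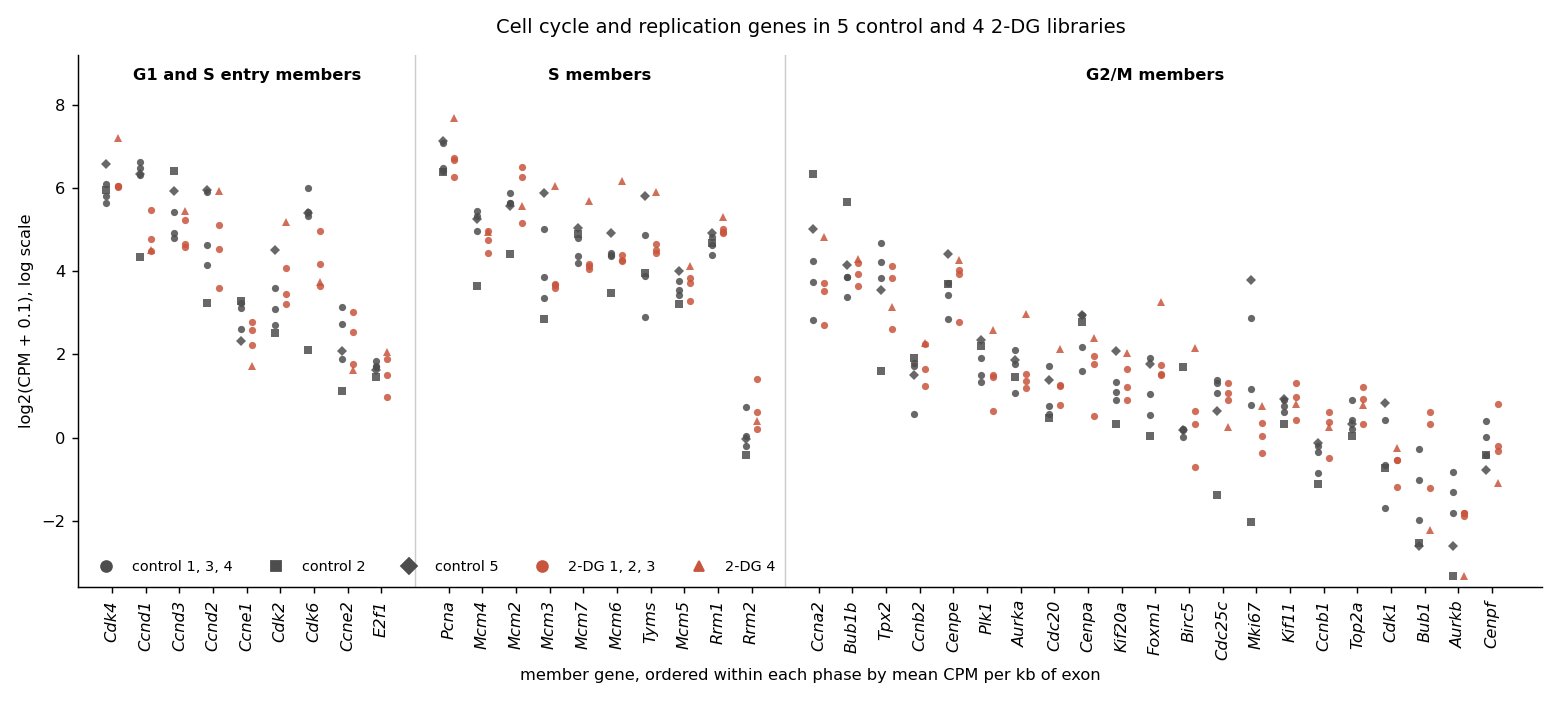
log2(CPM + 0.1) of each of the 40 members in each library, grouped by phase; grey is control and red is 2-DG, with control replicates 2 and 5 and 2-DG replicate 4 drawn as squares, diamonds and triangles. G2/M genes lie lowest, and the triangle of 2-DG replicate 4 is the top point of 16 members, among them Cdk4, Mcm3, Mcm6, Mcm7 and Pcna.

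Across the panel, no gene passed the threshold in the comparison of 2-DG with control. Of the 39 members tested (Aurkb was too low), 0 had an adjusted p under 0.05 with edgeR's quasi-likelihood test and Benjamini-Hochberg adjustment over 21049 genes, where the background was 0.0% of all genes. The smallest adjusted p of a member was 0.546. At an unadjusted p under 0.05, 0 members were higher in 2-DG, against a background of 2.42%, and 2 were lower, Ccnd1 and Mki67, against a background of 4.83%. DESeq2 called 0 members at an adjusted p under 0.05 as well (background 1.36%), and limma-voom with sample quality weights called 1, Ccnd1 (background 5.81%). The groups did not overlap in 1 member, Rrm1, which was higher (background 1.52%), and in 0 members that were lower (1.41%). In all, 24 tested members had a log2 fold change above 0 and 15 below, with a median of 0.15, beside −0.01 over all genes tested, of which 49.2% were higher. Bulk libraries cannot tell fewer cycling cells from less RNA of these genes per cell.

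The highest and lowest values of members often came from the same few libraries. Of the 40 members, 16 were highest in 2-DG replicate 4 (17.7% of all genes tested were), 6 in control replicate 5 (11.9%) and 4 in control replicate 2 (23%), while 21 were lowest in control replicate 2 (22.6%, a tie going to the first library in order). These shares were not tested, and 2-DG replicate 4 had the lowest TMM factor (0.82), which enters the CPM values given here. In 12 members (10.6% of all genes), 6 of them S genes, control replicate 5 and 2-DG replicate 4 were the 2 highest libraries, and these were also the 2 libraries with the most endothelium and pericyte marker RNA. Without 2-DG replicate 4 the median log2 fold change was −0.42 in the G1 list, −0.09 in the S list and −0.01 in the G2/M list, beside −0.09, 0.28 and 0.18 with it.

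Among the G1 genes, the lowest log2 fold changes were those of Ccnd1 and Cdk6, which work together, and E2f1 had almost the same mean in both groups. Of 9 tested, 3 had a log2 fold change above 0 and 6 below. Ccnd1 (ENSMUSG00000070348, chr7:144929931-144939925, minus strand, GRCm38) encodes cyclin D1, which couples growth signals to Cdk4 and Cdk6. Its level was 88.6, 20.1, 78.9, 99.2 and 80.2 CPM in control replicates 1 to 5 and 27.1, 44.6, 22.4 and 22.5 CPM in 2-DG replicates 1 to 4. Thus 4 of 5 control libraries lay above every 2-DG library, and control replicate 2 lay below them all. The means were 73.4 ± 30.9 CPM (SD, n = 5) and 29.1 ± 10.5 CPM (SD, n = 4), and the fitted log2 fold change came to −1.33 (SE, the standard error, 0.42), with a 95% interval from −2.27 to −0.40. The unadjusted edgeR p was 0.00955 and the adjusted p 0.546. Limma-voom with quality weights gave −1.36 with an adjusted p of 0.0270, and without control replicate 2 edgeR gave −1.58 with an adjusted p of 0.0637. With replicate number as a block it was −1.22, past no threshold (unadjusted p = 0.0597).

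Cdk6, the kinase partner of D-type cyclins, was at 40.2, 4.22, 43.0, 63.9 and 42.0 CPM in control and 17.9, 30.9, 12.5 and 13.4 CPM in 2-DG libraries. Like Ccnd1, it had control replicate 2 at the bottom and the other 4 controls above every 2-DG library. Its log2 fold change was −1.05 (SE 0.59, unadjusted p = 0.104, adjusted p = 0.746, edgeR). Without control replicate 2 it was −1.34, with an unadjusted p of 0.00231 and an adjusted p of 0.153. Ccnd3, a D-type cyclin, was instead highest in control replicate 2. Its levels were 30.1, 84.3, 27.6, 42.7 and 61.2 CPM in control and 25.2, 23.9, 37.2 and 43.4 CPM in 2-DG libraries, a log2 fold change of −0.60 (SE 0.36).

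Ccne1, which encodes cyclin E1 and drives entry into S phase with Cdk2, was at 9.38, 9.67, 6.03, 8.59 and 4.88 CPM in control and 4.58, 5.88, 6.78 and 3.17 CPM in 2-DG libraries. The groups overlapped, with a log2 fold change of −0.59 (SE 0.34). E2f1, an activating E2F factor, was at 3.46, 2.65, 3.13, 3.19 and 2.97 CPM in control and 2.72, 3.61, 1.87 and 4.09 CPM in 2-DG libraries. Its means were 3.08 and 3.07 CPM, and the 95% interval of its log2 fold change ran from −0.75 to 0.74, so neither a rise nor a drop of about that size can be set aside. Of the other members, Cdk2 had a log2 fold change of 0.72 and Cdk4 of 0.38, both with 2-DG replicate 4 highest. Those of Ccne2 and Ccnd2 were 0.01 and −0.09.

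Some Müller glia markers also had lower levels in 2-DG. Of the 10 markers listed for this cell type, 7 had a log2 fold change below 0 and 3 above, and 4 were lower at an unadjusted p under 0.05 (background 4.83%). That count was 2 without 2-DG replicate 4 (background 9.49%) and 3 without control replicate 2 (background 6.07%). Their summed level was 2468 to 8003 CPM in control and 1428 to 4346 CPM in 2-DG libraries, and none of the 10 was at or near 0. Library by library this sum did not repeat the order of Ccnd1: it was 4105 CPM in control replicate 2, above control replicates 1 (2627) and 3 (2468), and 4346 CPM in 2-DG replicate 3. Sox9, a transcription factor of Müller glia, was at 111.5, 20.9, 114.6, 195.5 and 193.9 CPM in control and 25.2, 37.2, 14 and 34.3 CPM in 2-DG libraries, with control replicate 2 among the 2-DG libraries. Its log2 fold change was −2.20 (SE 0.57, unadjusted p = 0.00277, adjusted p = 0.524, edgeR). Those of Sox2, Glul (glutamine synthetase) and Slc1a3 (a glutamate transporter) were −1.17, −1.28 and −1.07, while Apoe and Aqp4 were at 0.23 and 0.19. The part of glial RNA in the values of Ccnd1 and Cdk6 was not tested.

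**Figure D3:**
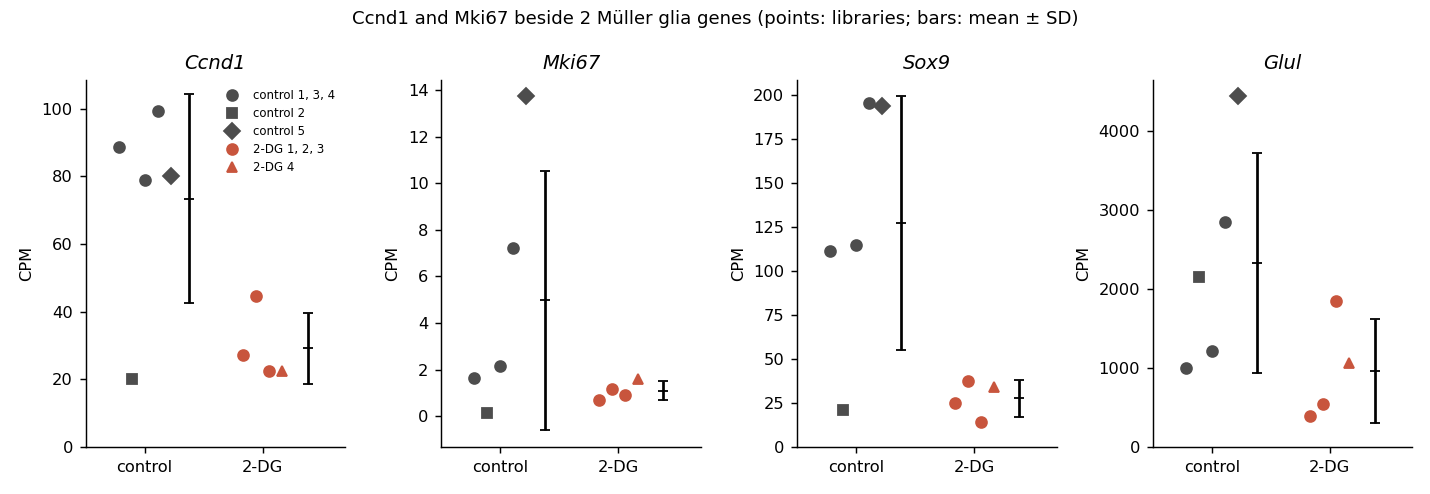
CPM of Ccnd1, Mki67 and the Müller glia genes Sox9 and Glul in each library (points), with the mean and SD of each group beside them. Sox9 and Glul are among the 7 of 10 listed markers with a log2 fold change below 0, and 3 were above. Control replicate 2 (square) falls below all 2-DG libraries for Ccnd1 (20.1 CPM) and among them for Sox9 (20.9 CPM), and the high control level of Mki67 comes from 2 libraries at 7.22 and 13.7 CPM.

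Most S genes had a higher mean in 2-DG, and in 7 of the 10 the top library was 2-DG replicate 4. Of the 10 genes, 8 had a log2 fold change above 0 and 2 below, from −0.27 (Mcm4) to 0.70 (Rrm2), and 0 had an unadjusted p under 0.05. Without 2-DG replicate 4 the count was 4 above and 6 below. Rrm1 (ENSMUSG00000030978, chr7:102441695-102469771, plus strand, GRCm38) encodes the large subunit of ribonucleotide reductase, which makes the deoxynucleotides for replication. Its level was 20.7, 25.6, 28.1, 24.6 and 29.9 CPM in control and 30.4, 32.2, 30.3 and 39.3 CPM in 2-DG libraries. Every 2-DG library lay above every control library, though the nearest pair, at 29.9 and 30.3 CPM, hardly differed. The log2 fold change was 0.36 (SE 0.19, unadjusted p = 0.0914, adjusted p = 0.739, edgeR).

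Rrm2, the small subunit of the same enzyme and the one tied to S phase, was expressed at a far lower level, 1.58, 0.644, 0.763, 0.922 and 0.872 CPM in control and 1.44, 2.55, 1.06 and 1.23 CPM in 2-DG libraries. Only control replicate 1 reached into the 2-DG range, and the log2 fold change was 0.70 (SE 0.43, unadjusted p = 0.129). Mcm2, a subunit of the replicative helicase, was at 49.7, 21.3, 59.1, 50.0 and 46.9 CPM in control and 76.9, 90.7, 35.4 and 47.1 CPM in 2-DG libraries. Here 2-DG replicates 1 and 2 were the high ones, and the log2 fold change was 0.46 (SE 0.34).

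Mcm6, of the same helicase, was at 20.4, 11.1, 20.8, 21.7 and 30.0 CPM in control and 19.3, 19, 20.8 and 71.8 CPM in 2-DG libraries. Its log2 fold change of 0.65 rested on 2-DG replicate 4 and was −0.08 without it. Pcna was at 88.8, 82.9, 85.1, 134.7 and 139.5 CPM in control and 102.3, 104.9, 77.3 and 204.5 CPM in 2-DG libraries. Its log2 fold change was 0.20 with a 95% interval from −0.49 to 0.89, and −0.16 without 2-DG replicate 4. Mcm3, Mcm7 and Tyms (thymidylate synthase) were also highest in 2-DG replicate 4, at 65.8, 51.5 and 59.4 CPM against at most 12.9, 17.8 and 25.0 CPM in the other 2-DG libraries. Log2 fold changes of Mcm3 and Tyms were 0.07 and 0.39, that of Mcm5 was 0.16, and Mcm7 had a mean of 25.8 CPM in both groups. Without 2-DG replicate 4, Mcm7 was lower in 2-DG at −0.59 (unadjusted p = 0.0438, adjusted p = 0.380).

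G2/M genes were mixed, and most were too low for a firm statement. Of 20 tested, 13 had a log2 fold change above 0 and 7 below, from −2.17 to 1.29, and without 2-DG replicate 4 there were 10 of each. In 3 G2/M genes, Aurkb, Bub1 and Mki67, at least 1 library held 3 counts or fewer. Mki67 (ENSMUSG00000031004, chr7:135689784-135716361, minus strand, GRCm38) encodes Ki-67, a protein of mitotic chromosomes that serves as the standard marker of cycling cells. It was at 1.62, 0.143, 2.14, 7.22 and 13.7 CPM in control and 0.679, 1.18, 0.926 and 1.60 CPM in 2-DG libraries. Control replicates 4 and 5 were high, control replicates 1 and 3 were close to the highest 2-DG library and control replicate 2, with 2 counts, was below all. The log2 fold change was −2.17 (SE 0.94, unadjusted p = 0.0429, adjusted p = 0.687, edgeR), and the 95% interval ran from −4.26 to −0.08. With replicate number as a block it was −0.76 (unadjusted p = 0.385).

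In Top2a, Ccnb1 and Cdk1, also genes of dividing cells, the groups overlapped. Top2a, the topoisomerase of chromosome condensation, was at 1.23, 0.931, 1.76, 1.05 and 1.16 CPM in control and 2.21, 1.80, 1.15 and 1.63 CPM in 2-DG libraries, with no high value in control replicates 4 or 5 and a log2 fold change of 0.46 (SE 0.37). Ccnb1, the mitotic cyclin B1, was at 0.692, 0.358, 0.458, 0.764 and 0.808 CPM in control and 1.19, 1.43, 0.611 and 1.09 CPM in 2-DG libraries. In 3 of 4 2-DG libraries it was above every control library, and the log2 fold change was 0.77 (SE 0.42, unadjusted p = 0.0933). Its kinase Cdk1 was at 1.23, 0.501, 0.534, 0.211 and 1.68 CPM in control and 0.594, 0.342, 0.593 and 0.744 CPM in 2-DG libraries, all within the control range. The log2 fold change of Cdk1 was −0.56 (SE 0.60), and it turned to 0.54 when gene counts were summed over transcripts.

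Foxm1, an activator of mitotic genes, was at 1.35, 0.931, 1.99, 3.66 and 3.33 CPM in control and 3.23, 2.80, 2.74 and 9.41 CPM in 2-DG libraries. Its log2 fold change was 1.00 (SE 0.54, unadjusted p = 0.0919), falling to 0.36 without 2-DG replicate 4. Cenpa, the centromeric histone H3 variant, was at 2.92, 6.80, 7.56, 4.40 and 7.63 CPM in control and 3.82, 3.33, 1.33 and 5.12 CPM in 2-DG libraries. It was below the control mean in every 2-DG library, with a log2 fold change of −0.79 (SE 0.45). Cyclin A2 (Ccna2) reached 80.2 CPM and the checkpoint gene Bub1b 50.3 CPM in control replicate 2, against at most 32.3 and 19.6 CPM elsewhere, and their log2 fold changes were −1.04 and −0.38.

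The remaining G2/M genes were described by their range. Log2 fold changes of Cdc20, Birc5, Ccnb2, Aurka, Kif20a, Kif11, Cenpf, Cenpe and Cdc25c ran from 0.05 to 0.41, those of Plk1 and Tpx2 were −0.21 and −0.33, and that of the checkpoint kinase gene Bub1 was 1.29 (SE 0.85). Aurkb, the mitotic kinase Aurora B, was at 0 counts in control replicate 2 and 2-DG replicate 4, which allows up to 0.215 and 0.0858 CPM (3 counts, for counting error only), and at 0.0646 to 0.461 CPM elsewhere.

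The histone genes were set beside the S genes for the question posed at the start. Of 61 histone genes listed, 57 were matched and 28 tested, and 27 of these were lower, with a median log2 fold change of −1.49. The filter on low counts can keep a gene through the group where it is high, and without it 48 of 54 were lower (median −1.51). Without control replicate 5, 18 of 21 were lower (median −1.02). None passed an adjusted p of 0.05 with edgeR, while 5 were lower at that threshold with DESeq2 (background 1.36%) and 12 with limma-voom (background 5.81%). Both of these backgrounds count genes called in either direction. With edgeR, 11 were lower at an unadjusted p under 0.05 (background 4.83%), and 21 of 30 tested without 2-DG replicate 4 (background 9.49%), and 7 had groups that did not overlap (background 1.41%). H1f4, a linker histone, was at 7.73, 13.5, 10.9, 6.72 and 9.82 CPM in control and 1.61, 1.52, 1.19 and 2.35 CPM in 2-DG libraries, so that the lowest control was well above the highest 2-DG library. Its log2 fold change was −2.54 (SE 0.36), and that of H1f3, also a linker histone, was −2.66 (SE 0.38). Both had an adjusted p of 0.189 with edgeR. With DESeq2 and limma-voom the adjusted p was 6.60e-11 and 0.00464 for H1f4, and 1.48e-12 and 0.00239 for H1f3. Single histone genes are near copies of each other and can share reads.

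**Figure D4:**
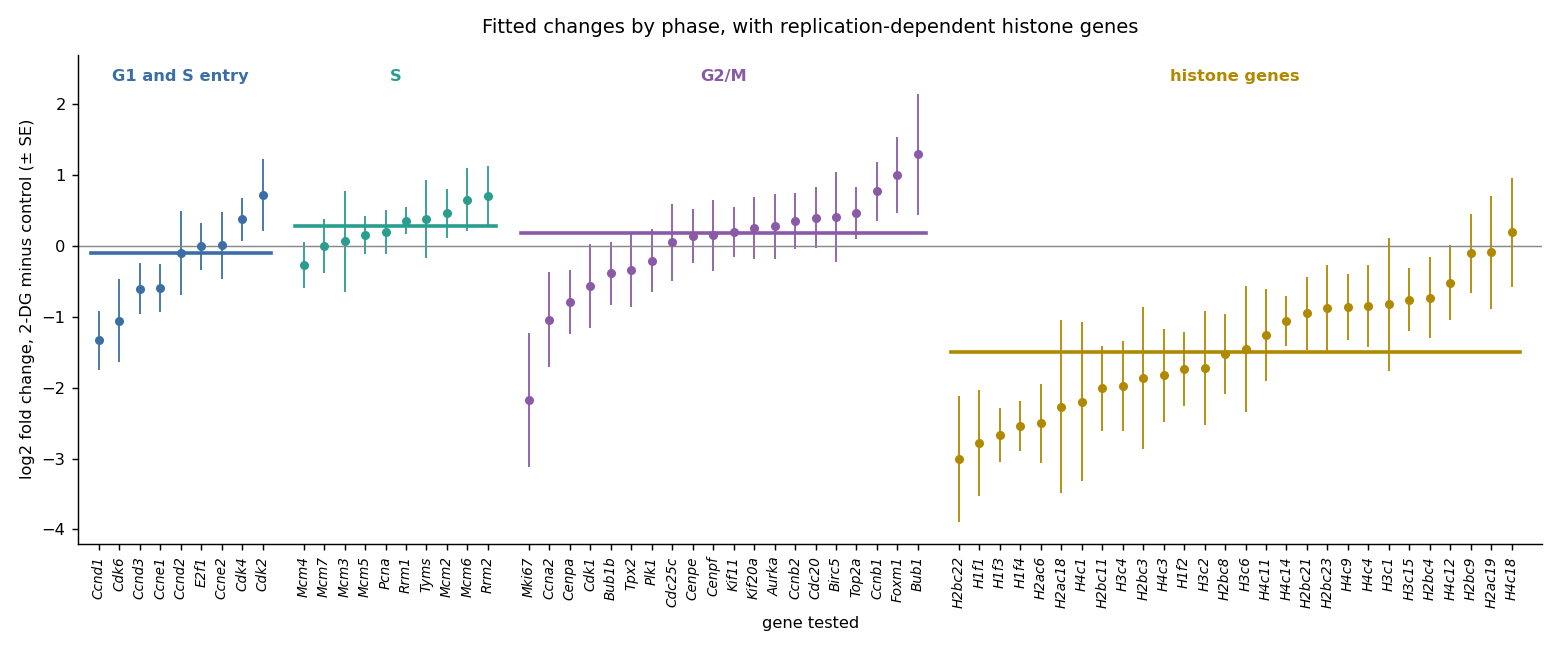
Fitted log2 fold change of 2-DG minus control, with its standard error, for the tested members of each phase and 28 replication-dependent histone genes, sorted within each list; the horizontal bars are list medians. The medians are −0.09, 0.28 and 0.18 for the phases and −1.49 for the histones, and in the G2/M list only the Mki67 bar lies wholly below −1.

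The S list and the histones were compared by their medians, without a test. Without 2-DG replicate 4 the medians were −0.09 and −1.95, and without control replicate 2 they were 0.19 and −1.22. Across all settings tried, the median of the S list ran from −0.09 to 0.44 and that of the histones from −1.95 to −1.02.

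Library by library, the summed level of the 10 S genes was 259, 215, 300.5, 373 and 449 CPM in control and 324, 347.5, 247 and 588 CPM in 2-DG libraries, and the groups overlapped. The summed histone level was 123, 363, 129, 193 and 219.5 CPM in control and 57.6, 56.1, 52.4 and 173 CPM in 2-DG libraries. The groups overlapped here too, through 2-DG replicate 4, which was highest for the S genes. The ratio of the histone sum to the S sum was 0.430 to 1.69 in control and 0.161 to 0.294 in 2-DG libraries, without overlap. With Pcna, the largest term, left out of the S sum it was 0.600 to 2.74 and 0.231 to 0.451, and against the G2/M sum it was 1.41 to 2.08 and 0.636 to 1.34. These ratios were formed with the histone result known and carry no test. Whether any of these mRNAs came from cells in S phase was not measured.

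**Figure D5:**
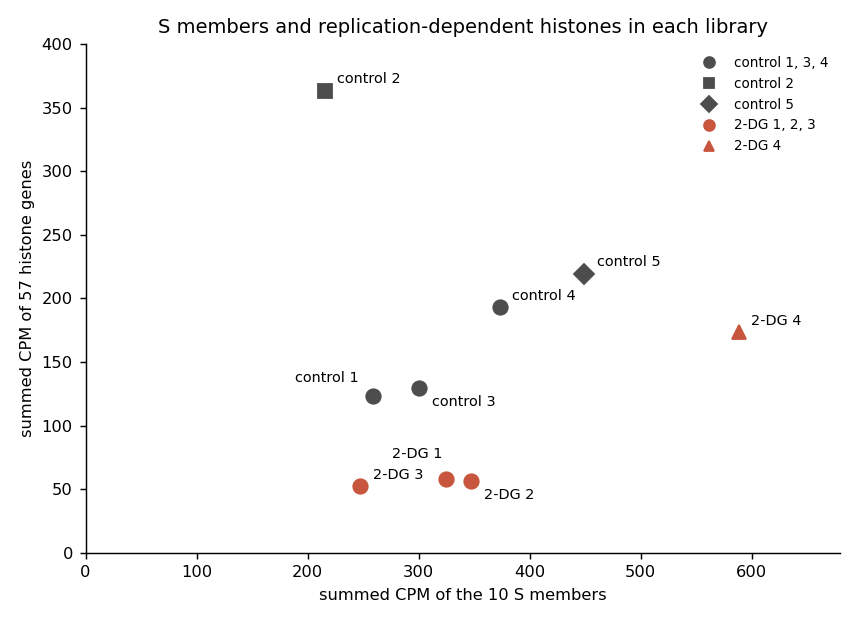
Summed CPM of 57 replication-dependent histone genes against summed CPM of the 10 S genes, 1 point per library, with both axes from 0. At S sums within the control range, 2-DG replicates 1 to 3 (red) have less histone RNA than every control (grey). 2-DG replicate 4 lies at an S sum of 588 CPM, above every control, with 173 CPM of histones. Ratios are 0.161 to 0.294 in 2-DG and 0.430 to 1.69 in control libraries. Control replicate 2 lies apart at 363 CPM of histones.

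Other cell cycle genes gave few calls either. Of 110 further cell cycle genes in 5 lists, 107 were tested, 0 had an adjusted p under 0.05 and their median log2 fold change was 0.13. At an unadjusted p under 0.05, 6 were higher (background 2.42%) and 3 lower (background 4.83%). The medians were −0.02 for CDK inhibitors and pocket proteins (0 of 9 at that p), 0.10 for E2F and DREAM factors (0 of 14), 0.17 for origin licensing and firing (1 of 17 higher), 0.19 for the replication fork and nucleotide supply (1 higher and 1 lower of 28) and 0.08 for other mitotic genes (4 higher and 2 lower of 39). Groups did not overlap in 3 genes that were higher (background 1.52%) and 1 that was lower (background 1.41%).

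Gmnn, which encodes geminin, the inhibitor of origin licensing in S and G2, was at 2.19, 2.51, 1.83, 2.95 and 3.42 CPM in control and 4.84, 4.67, 3.59 and 4.75 CPM in 2-DG libraries. All 2-DG libraries lay above the controls, with a log2 fold change of 0.78 (SE 0.32, unadjusted p = 0.0324, adjusted p = 0.656, edgeR). Gmnn missed an unadjusted p of 0.05 in 6 of the 9 fits that left out 1 library (0.68 to 0.80) and with upper-quartile scaling (0.69, unadjusted p = 0.0586). Pold3, a subunit of DNA polymerase delta, was at 44.3, 42.0, 45.5, 35.8 and 33.5 CPM in control and 55.2, 50.6, 51.1 and 65.6 CPM in 2-DG libraries, also without overlap (log2 fold change 0.47, SE 0.18, unadjusted p = 0.0273). From sums over transcripts Pold3 was at 0.24 (unadjusted p = 0.286), and with the replicate block at 0.41 (unadjusted p = 0.110). Cks1b, a CDK subunit named here after its values were seen, was the third such gene, at 0.94. Kif2c, a microtubule-depolymerizing kinesin of mitosis, was at 0.808, 1.15, 0.534, 0.474 and 1.07 CPM in control and 0.170, 0.342, 0.222 and 0.400 CPM in 2-DG libraries, without overlap and lower (log2 fold change −1.45, SE 0.46, unadjusted p = 0.00991, adjusted p = 0.546). With the replicate block Kif2c was at −1.29 (unadjusted p = 0.0598).

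Smc2, a condensin subunit, was at 9.19, 4.22, 15.2, 8.51 and 7.14 CPM in control and 15, 14.4, 18.3 and 23.1 CPM in 2-DG libraries. The third control library alone reached into the 2-DG range. The edgeR log2 fold change of Smc2 was 1.00 (SE 0.35, unadjusted p = 0.0166, adjusted p = 0.602). Log2 fold changes of the other genes named by the same rule were 0.39 for Lin52 and −0.41 for E2f5, of the DREAM and E2F factors, 0.35 for Rbl1 (p107) and −0.31 for the CDK inhibitor Cdkn2d, and 0.55 for Cdc45, of the replicative helicase. With edgeR, the adjusted p was 0.692 or more for each of these 5.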

How the data were processed

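RNA-seq of 9 libraries, 5 control and 4 2-DG, was analysed, with groups and replicate numbers taken from the sample titles. The protocol text is the same for every sample and names 2-DG, so it was not used for grouping. Per the labels, libraries were stranded total RNA libraries, and the submitters' processing notes list kallisto and GRCm38, with no version. The annotation is not given in the sources used here. The authors deposited estimated counts per gene and per transcript, not scaled between libraries. The authors also deposited scaled CPM and a table of their own 2-DG comparison (log2 fold changes, p-values and adjusted p-values), neither of which was used. All count columns had a sample.

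Estimated counts were rounded to whole numbers, and edgeR 4.0.16 in R 4.3.3 was run on all 9 libraries with filterByExpr, TMM, glmQLFit and glmQLFTest, the group as the only term, and Benjamini-Hochberg adjustment over 21049 genes. The threshold was an adjusted p of 0.05. Standard errors are the absolute log2 fold change over the square root of F, 95% intervals use the fit's degrees of freedom, and CPM are on TMM-scaled library sizes. The fit was also run on simulated counts, with the outcome not given here. DESeq2 1.42.0, limma 3.58.1 (voom with sample quality weights), other scalings, no filter, a replicate block and fits without each library were alternatives, and sums over transcripts were added after seeing the data. Floors of 3 counts and intervals do not cover amplification.

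The members, lists and motifs were chosen with earlier results of these data known. Values in every library are given for the 4 tested members with the smallest unadjusted p in each phase and for Mki67, Top2a, Pcna, Ccnd1, Ccnb1, Cdk1, Mcm2 and E2f1, and for the 2 genes with the smallest p in each further list. Others were named after their values were seen. A gene that the rule also named is not reported here. Coordinates are from GENCODE M21 on GRCm38 and promoters from RefSeq on GRCm38.p6.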

Additional observations from a re-analysis of the deposited data

Results flagged for a closer look

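Within each group, the highest and the lowest library of every member were compared with their neighbours by Dixon's criterion at the 95% level, over 80 groups. Chance flags about 1 in 20 groups. Here 11 values (13.8% of the groups) stood apart, 8 of them in 2-DG replicate 4 and 3 in control replicate 2, beside 12.1% over all genes tested, of which 44.3% lay in 2-DG replicate 4 and 33.0% in control replicate 2. 2-DG replicate 4 was the highest of its group at 145.9 CPM for Cdk4 (others 65.2 to 66.2), 65.8 CPM for Mcm3 (11.9 to 12.9), 71.8 CPM for Mcm6 (19 to 20.8) and 51.5 CPM for Mcm7 (16.5 to 17.8). The same library was highest at 59.4 CPM for Tyms (21.6 to 25.0), 7.75 CPM for Aurka (2.19 to 2.77) and 9.41 CPM for Foxm1 (2.74 to 3.23), and lowest at 0 counts for Aurkb, which allows up to 0.0858 CPM (others 0.170 to 0.187 CPM). Control replicate 2 was the lowest of its group for Ccnd1 at 20.1 CPM (others 78.9 to 99.2), and the highest for Bub1b at 50.3 CPM (10.3 to 17.5) and for Birc5 at 3.15 CPM (0.916 to 1.05). The cause was not tested.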

How the results depend on the processing

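Of the medians and counts, 129 values under alternatives stayed within 1 SD between libraries (medians) or 1.5 times the main value (counts), and 24 did not. That SD is wide for the lists: medians ran from −0.42 to 0.06 (G1), −0.09 to 0.44 (S) and −0.01 to 0.30 (G2/M) without single libraries. The count of all genes at an adjusted p under 0.05 was 0 with edgeR, 284 with DESeq2 and 1222 with limma-voom, and 0 to 16 without single libraries (16 without control replicate 2). The count at an unadjusted p under 0.05 was 1526, with 2642 without the filter, 5474 with limma-voom and 921 to 2721 without single libraries (lowest without control replicate 4, highest without 2-DG replicate 4). Of these genes 66.6% were lower in 2-DG, against 79.9% with upper-quartile scaling and 82.4% with library size only. Members at an adjusted p under 0.05 numbered 0, and 1 with limma-voom. Members higher at an unadjusted p under 0.05 numbered 0, with 1 in DESeq2 (Rrm1, background 3.51%), 5 in limma-voom (Mcm2, Rrm2, Bub1, Rrm1 and Ccnb1, background 10.6%), 2 in the sums over transcripts (Bub1 and Rrm1, background 2.30%) and 0 to 1 without single libraries (Cdk2 without control replicate 5, Ccnb1 without 2-DG replicate 3). Members lower numbered 2, with 5 in limma-voom (Ccnd1, Cdk6, Ccnd3, Ccne1 and Mki67, background 15.4%), 3 in the sums over transcripts (Ccnd1, Mki67 and Cdk6, background 4.88%) and 1 to 4 without single libraries. Without control replicate 2 there were 4, adding Mcm4 and Cdk6 (background 6.07%). Ccnd1 kept an unadjusted p under 0.05 in all 9 such fits, with log2 fold changes from −1.61 to −1.22, and Mki67, at −2.48 to −1.35 in these 9 fits, lost it without control replicate 4 or 5 or any 2-DG library, at −2.41 to −1.35. The G1 median was −0.55 with limma-voom.

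Replicate numbers are shared between groups, and nothing says whether same-numbered libraries are pairs. Correlations of same-numbered deviations were 0.451, −0.155, 0.102 and 0.205, and 1 of 4 numbers correlated best with itself. Such correlations cannot show whether samples shared an animal. With the replicate block, 3 members were higher (Foxm1, Cdk2 and Tyms, background 3.24%) and 0 lower (background 3.18%) at an unadjusted p under 0.05, and 49.5% of all genes at that p were lower. There Ccnd1 was at −1.22 (edgeR unadjusted p = 0.0597) and Mki67 at −0.76 (0.385), against −1.33 and −2.17 without the block.

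Of the members described by library, 4 changed sign in log2 fold change under some alternative. That of Mcm6, at 0.65, was −0.070 with limma-voom and −0.081 to 0.84 without single libraries, and that of Pcna −0.080 and −0.16 to 0.37. For Cdk1, −0.56 in the main result, it was 0.16 with limma-voom, 0.089 with the replicate block and 0.54 from sums over transcripts. For E2f1 it was 0.00023 with DESeq2 size factors, 0.014 without the filter and −0.18 to 0.18 without single libraries (0.04 without control replicate 1, 0.06 without 2-DG replicate 1). The cause was not tested. Members near 1 CPM rest on few counts. With edgeR, log2 fold changes as far from 0 as that of H1f4 (−2.54, SE 0.36, adjusted p = 0.189) did not pass the adjusted threshold.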
